A study of Mus musculus with 9 samples.

Results

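The resident lymphocyte and dendritic cell genes described here are Itgb7, Cd2, Cd3e, Cd3g, Lck, Nkg7, Ncr1, Klrb1c and Flt3, which mark T cells, natural killer (NK) cells and dendritic cells in the mouse sublingual gland. All 9 were found by symbol among the 54532 genes of the deposited counts. They were picked from a list with earlier results of these same libraries known, so their values are given as a description and are not independent evidence of a change. The 9 libraries came from wild-type (WT) glands in 3 groups of 3, namely no radiation (control), 7 days after 10 Gy (day 7) and 14 days after 10 Gy (day 14) (the study deals with long-term repair of irradiated salivary glands). RNA came from tissue sections of whole gland, and age, sex and strain are not in the labels used here.

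A mucous salivary gland holds resident leukocytes between its acini and ducts as well as secretory cells. T cells read antigen through a receptor whose signal is carried by the CD3 chains and the kinase Lck, while NK cells and other innate lymphocytes act through activating receptors such as NKp46 (Ncr1) and NK1.1 (Klrb1c) and through cytotoxic granules. Dendritic cells carry antigen to T cells, and their precursors depend on the receptor Flt3 and its ligand. The integrin chain encoded by Itgb7 pairs with an alpha chain, either the one that holds lymphocytes and some dendritic cells to epithelial E-cadherin (Itgae) or the one that binds endothelial MAdCAM-1 and VCAM-1 (Itga4). Lymphocytes are among the cells most readily killed by ionising radiation.

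Library totals ran from 15962399 to 19441239 counts, and 3 counts in a library corresponded to 0.154 to 0.188 CPM (counts set to an equal total per library, with TMM factors where a group mean is given). The 9 genes were close to that floor. Of their 81 values, 18 were at 3 counts or fewer and 13 were at 20 counts or more, and the range was 0 to 70. The filter on low counts kept 6 of the 9 (Itgb7, Cd2, Lck, Nkg7, Ncr1 and Klrb1c) among 15348 genes tested. Cd3e, Cd3g and Flt3 did not pass it and are given as counts. Ratios of summed counts below carry exact 95% intervals that cover counting error only, since PCR copies are not independent molecules. In whole tissue, fewer cells of a type and less RNA per cell cannot be told apart. The labels do not say that the libraries of a group came from separate animals, so adjusted p-values rest on the spread among the 3 samples of each group, part of which may be technical.

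In the control glands the genes were ranked by level per length, in CPM per kilobase of exon. Itgb7 was highest at 1.08 ± 0.117 (mean ± SD, n = 3), followed by Nkg7 at 0.741 ± 0.346, Ncr1 at 0.566 ± 0.201, Cd2 at 0.395 ± 0.0757, Klrb1c at 0.361 ± 0.0723 and Lck at 0.221 ± 0.0890. Cd3g at 0.118 ± 0.0409, Flt3 at 0.0525 ± 0.0238 and Cd3e at 0.0407 ± 0.0115 closed the order. For each pair of neighbours in this order the control libraries overlapped. On this scale the mean levels of the NK cell genes Nkg7 and Ncr1 stood above those of the T cell genes Cd3g and Cd3e. The order does not rank the cell types. The mean of Klrb1c stood below that of Cd2. Of T cell genes outside the 9, some stood above Nkg7 (Thy1 at 2.16, Trbc2 at 0.873) and others below it (Trac at 0.195).

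Summed over the 9 genes, the control libraries held 119, 126 and 137 counts. The day 7 libraries held 54, 47 and 70 counts, and the day 14 libraries 181, 133 and 173. In CPM the sum was 7.26 to 8.50 in controls, 2.58 to 3.76 at day 7 and 7.07 to 10.6 at day 14. Day 7 lay below both other groups, and day 14 overlapped the controls.

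**Figure D1:**
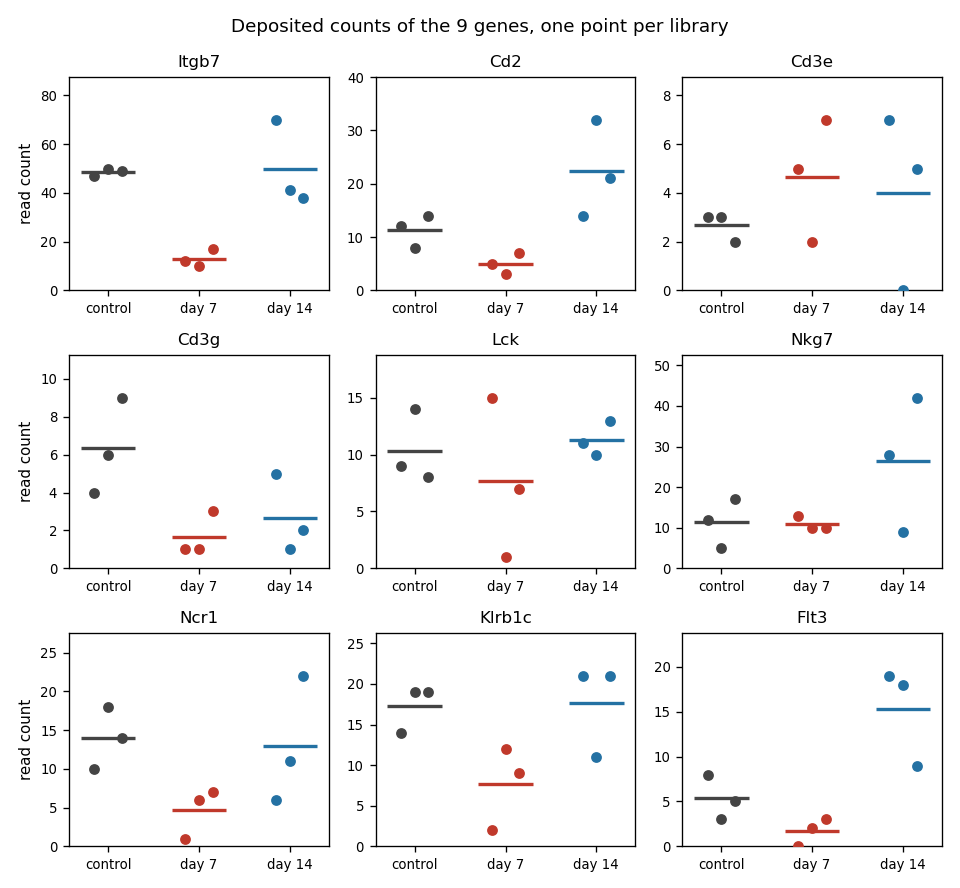
Deposited read counts (y axis, from 0, a scale of its own in each panel) of the 9 genes in each of the 9 libraries, grouped on the x axis as control, day 7 and day 14, with a bar at the group mean. Itgb7 runs from 47 to 50 counts in controls and from 10 to 17 at day 7, while Cd3e stays at 7 counts or fewer in every library.

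To show the stretch of DNA in front of these genes, 250 bases upstream of the RefSeq start site (GRCm38.p6) were searched for 5 motifs of lymphoid transcription factors on both strands. The RefSeq promoter table matched 8 of the 9 genes, all but Cd2. For RUNX factors the letters were TGTGGT, which 14.0% of all 32851 promoter windows of that length hold. For ETS factors they were GGAAGT (19.7% of windows), for GATA factors the letters AGATAA (10.0%), for E-box proteins CAGGTG (17.2%) and for T-box factors GGTGTG (16.3%). The RUNX letters were found in front of 4 genes (Nkg7, Ncr1, Klrb1c and Lck), and the ETS letters in front of 4 (Klrb1c, Cd3e, Lck and Flt3). Both stood in the same window in Klrb1c and in the second start site of Lck, against 2.9% of all windows. A match is a description of the letters and not of a bound site. The windows of the gene with the largest counts (Itgb7), of an NK cell receptor with a RUNX match on each strand (Ncr1) and of the pair with both motifs are given 5′ to 3′ on the gene's own strand, with matches to any of the 5 motifs in capitals. They lie at chr15:102231936-102232185 (minus strand), chr7:4337465-4337714 (plus), chr6:128788642-128788891 (minus) and chr4:129573642-129573891 (minus). The Klrb1c window lies almost wholly in an intron of a longer Klrb1c transcript in GENCODE M21.
Itgb7: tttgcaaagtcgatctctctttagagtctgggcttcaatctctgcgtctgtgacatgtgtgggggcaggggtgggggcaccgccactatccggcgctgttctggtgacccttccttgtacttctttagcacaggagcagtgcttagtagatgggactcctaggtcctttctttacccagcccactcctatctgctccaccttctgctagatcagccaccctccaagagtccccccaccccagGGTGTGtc
Ncr1: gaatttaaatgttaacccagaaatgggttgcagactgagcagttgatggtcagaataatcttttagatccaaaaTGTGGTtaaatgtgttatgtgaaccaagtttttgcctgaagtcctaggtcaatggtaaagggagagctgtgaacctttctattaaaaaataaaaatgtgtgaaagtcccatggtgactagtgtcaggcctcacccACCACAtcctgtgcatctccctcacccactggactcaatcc
Klrb1c: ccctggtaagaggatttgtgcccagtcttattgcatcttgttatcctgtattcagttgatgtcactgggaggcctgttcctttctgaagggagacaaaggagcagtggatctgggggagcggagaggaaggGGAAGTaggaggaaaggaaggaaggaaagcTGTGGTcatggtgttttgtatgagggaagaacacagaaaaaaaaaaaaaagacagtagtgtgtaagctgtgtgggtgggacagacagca
Lck: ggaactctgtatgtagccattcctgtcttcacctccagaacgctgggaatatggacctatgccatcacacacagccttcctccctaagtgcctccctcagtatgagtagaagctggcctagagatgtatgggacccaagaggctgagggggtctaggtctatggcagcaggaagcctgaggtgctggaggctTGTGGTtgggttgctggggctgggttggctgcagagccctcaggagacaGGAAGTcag
The Itgb7 window holds none of the RUNX, ETS, GATA or E-box letters, and its T-box match ends 3 bases before the start site. In Ncr1 the 2 RUNX matches begin 176 and 41 bases before the start site.

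Itgb7, the integrin beta 7 chain of gut- and epithelium-homing lymphocytes (ENSMUSG00000001281, chr15:102215995-102231944, GRCm38), had the most reads of the 9. Its counts were 47, 50 and 49 in the control libraries, 12, 10 and 17 at day 7 and 70, 41 and 38 at day 14. All 3 day 7 libraries lay below all others, and day 14 straddled the controls. Summed counts at day 7 were 4.23-fold lower than in controls (95% interval 2.95 to 6.19) and the log2 fold change was −2.08 (SE 0.39). From day 7 to day 14 the log2 fold change was 1.96 (SE 0.39), and between control and day 14 it was −0.12 (SE 0.35). Without day 14 replicate 1, the library with 70 counts, the last value was −0.50.

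Cd2 encodes the adhesion receptor of T and NK cells that binds CD48 in mice (ENSMUSG00000027863, chr3:101275899-101287939). The libraries held 12, 8 and 14 counts in controls, 5, 3 and 7 at day 7 and 14, 32 and 21 at day 14. In CPM the day 7 libraries were the lowest and the day 14 libraries the highest, with no overlap between any 2 groups, although the margin between control and day 14 was narrow (a count of 14 on each side). The log2 fold change against control was −1.33 (SE 0.62) at day 7 and 0.82 (SE 0.55) at day 14, and from day 7 to day 14 it was 2.14 (SE 0.60). Day 14 held 4.54-fold more counts than day 7 after scaling (interval 2.56 to 8.55).

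The CD3 chains and their kinase differed among themselves. Cd3g, the gamma chain of the CD3 signalling complex (ENSMUSG00000002033, chr9:44969572-44980431), had 4, 6 and 9 counts in controls, 1, 1 and 3 at day 7 and 5, 1 and 2 at day 14. Its day 7 libraries lay below the controls, 4.29-fold by summed counts (interval 1.55 to 14.7), and its day 14 libraries overlapped both groups. Cd3e, the epsilon chain (ENSMUSG00000032093, chr9:44998740-45009627), had 3, 3 and 2 counts in controls, 5, 2 and 7 at day 7 and 7, 0 and 5 at day 14. Those groups overlapped throughout, and the summed ratio of day 7 to control was 1.55 with an interval of 0.607 to 4.26. Cd3e shares its locus with Gm48719 on the other strand, and whether reads were counted by strand is not given in the sources used here, so the source of so few reads cannot be told apart.

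Lck, the kinase that starts signalling from the T cell receptor and is also present in NK cells (ENSMUSG00000000409, chr4:129548344-129573641), had 9, 14 and 8 counts in controls. At day 7 it had 15, 1 and 7 counts, so that the day 7 libraries held both a high value and the lowest of all 9. In CPM, Lck ran from 0.453 to 0.944 in controls and from 0.0549 to 0.815 at day 7. At day 14 it had 11, 10 and 13 counts. The log2 fold change at day 7 was −0.62 (SE 0.72) with all libraries and −1.54 without day 7 replicate 1, and day 14 against day 7 was 0.58 (SE 0.71) with all libraries and 1.50 without it. The levels of Lck overlapped in all comparisons.

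Among the NK cell genes, Ncr1, the activating receptor NKp46 (ENSMUSG00000062524, chr7:4337724-4345164), had 10, 18 and 14 counts in controls, 1, 6 and 7 at day 7 and 6, 11 and 22 at day 14. Day 7 lay below the controls, 3.39-fold by summed counts (interval 1.81 to 6.72) with a log2 fold change of −1.75 (SE 0.72), while day 14 overlapped both other groups. Klrb1c, the NK1.1 antigen of NK cells in some mouse strains (ENSMUSG00000030325, chr6:128778485-128789215), had 14, 19 and 19 counts in controls, 2, 12 and 9 at day 7 and 21, 11 and 21 at day 14. Its day 7 libraries also lay below the controls (log2 −1.34, SE 0.61), and one day 14 library fell among them. Nkg7, a membrane protein of cytotoxic granules (ENSMUSG00000004612, chr7:43437073-43438249), showed another pattern. It had 12, 5 and 17 counts in controls, 13, 10 and 10 at day 7 and 28, 9 and 42 at day 14, and its groups overlapped in all comparisons. Nkg7 had a log2 fold change of −0.19 (SE 0.62) at day 7 and 1.09 (SE 0.58) at day 14 against control.

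Klrb1c counts carry an extra uncertainty, because parts of its transcripts also occur in related Klrb1 genes on chromosome 6. Of the 50-base windows of Klrb1c transcripts in GENCODE M21, 17.0% also occur in Klrb1a, Klrb1b or Gm44511, a gene model that overlaps Klrb1c on the same strand. For 100-base windows the share was 10.8%. One such shared part, a run of 60 coding bases, is shown, with the base that differs from Klrb1c in capitals (coding bases 516 to 575 of Klrb1c, 390 to 449 of Klrb1a and 372 to 431 of Klrb1b).
Klrb1c: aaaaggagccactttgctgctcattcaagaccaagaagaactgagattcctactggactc
Klrb1a: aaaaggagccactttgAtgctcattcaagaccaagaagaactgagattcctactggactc
Klrb1b: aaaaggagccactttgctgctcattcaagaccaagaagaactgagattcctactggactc
Reads from this stretch match Klrb1c and Klrb1b equally well. Klrb1b itself had 3, 6 and 10 counts in controls, 0, 2 and 3 at day 7 and 4, 7 and 0 at day 14. Klrb1a had 1, 2 and 3 counts in controls, 1, 3 and 0 at day 7 and 13, 8 and 11 at day 14, so that at day 14 it summed to 32 counts beside 53 for Klrb1c. For Itgb7, Cd2, Nkg7, Ncr1, Cd3g and Lck no 50-base window was shared with another gene.

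Flt3, the receptor tyrosine kinase of dendritic cell precursors and conventional dendritic cells (ENSMUSG00000042817, chr5:147330741-147400489), had 8, 3 and 5 counts in controls, 0, 2 and 3 at day 7 and 19, 18 and 9 at day 14. Day 7 lay below the controls, with summed counts 3.61-fold lower (interval 1.27 to 12.6). Day 14 lay above day 7, with summed counts 9.34-fold higher (interval 3.73 to 30.1). Against control, day 14 was 2.59-fold higher by summed counts (interval 1.44 to 4.89), although in CPM the lowest day 14 library met the highest control (0.488 in each). Flt3 and Cd2 were the members whose day 14 counts summed to more than their control counts with an interval above 1, together with Nkg7 (2.09-fold, interval 1.38 to 3.22).

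Side by side, 6 of the 9 genes had all 3 day 7 libraries below all 3 controls in CPM (Cd2, Itgb7, Ncr1, Klrb1c, Cd3g and Flt3), and 3 overlapped (Nkg7, Cd3e and Lck). Such separation downward was seen in 21.7% of all genes tested, and since the 9 genes were chosen for this comparison nothing is read from the count. Of the 6 tested, 1 (Itgb7) passed an adjusted p of 0.05 at day 7 (edgeR), where 14.8% of all genes passed in the lower direction and 30.6% in either. At day 14 against control none of the 6 passed by edgeR, DESeq2 or limma-voom and none had an unadjusted edgeR p under 0.05, where 1.76% of all genes passed, and Cd2 alone of the 9 did not overlap the controls, on the higher side, against 12.4% of all genes. At day 14 against day 7, 2 of the 6 passed (Itgb7 and Cd2), where 3.72% of all genes passed in the higher direction and 6.59% in either, and 3 of the 9 did not overlap (Cd2, Itgb7 and Flt3), against 15.9% of all genes. Cd2 was past the threshold only with all day 7 and day 14 libraries in the fit: leaving out any one of these 6 ended it (log2 1.81 to 2.45), as did limma-voom (2.08) and the replicate block (2.14), while the size of the change stayed within 1 SE of that with all libraries. The median log2 fold change of the 6 was −1.33 for day 7 against control (0.02 over all genes), −0.08 for day 14 against control (0.01) and 1.37 for day 14 against day 7 (0.00136). The comparisons share libraries, so their values are not independent of each other.

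**Figure D2:**
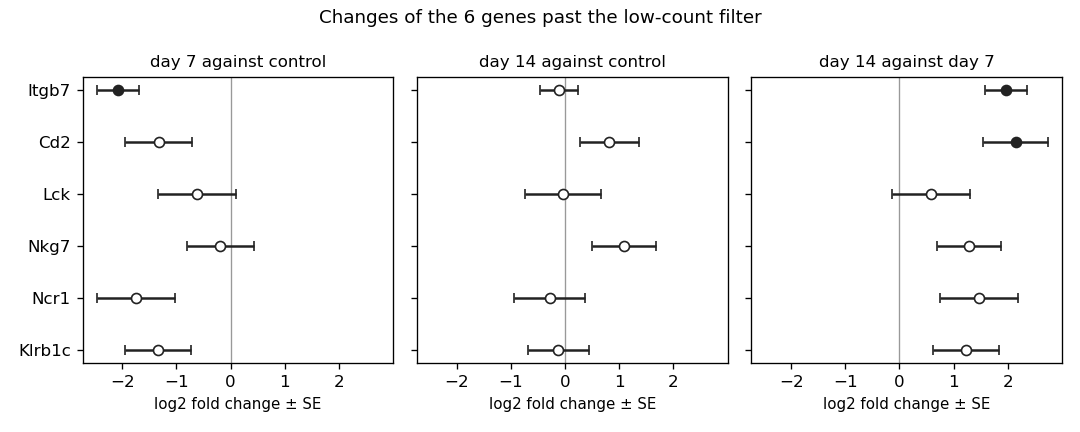
Log2 fold change (x axis) with its SE for the 6 genes that passed the low-count filter, in the 3 comparisons, each fitted on all 9 libraries. Filled points passed an adjusted p of 0.05, which were Itgb7 at day 7 against control and Itgb7 and Cd2 at day 14 against day 7.

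Replicate spread exceeded counting error in most members. The variance over the libraries of a group, relative to what counting alone gives, was 4.41 for Nkg7, 3.27 for Itgb7, 2.89 for Ncr1, 2.77 for Lck and 2.15 for Klrb1c. It was 1.70 for Cd3e, 1.56 for Flt3, 1.36 for Cd2 and 1.15 for Cd3g. Counting intervals therefore understate the error of the first 5 more than that of Cd2 and Cd3g.

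The partners and ligands of these proteins came next, a list of 15 genes of which 11 were tested. At day 7, 2 of them fell and none rose, where 14.8% of all genes tested fell and 15.8% rose. The median log2 fold change of the 11 was −0.49. Itgae, the alpha E chain that joins Itgb7 to form the receptor for E-cadherin, was at 8, 26 and 16 counts in controls, 7, 3 and 1 at day 7 and 27, 15 and 11 at day 14. Its day 7 libraries lay below both other groups, and it fell at day 7 (log2 −2.35, SE 0.74, edgeR adjusted p = 0.0215). That call was lost without control replicate 2 (−1.78), day 7 replicate 2 (−2.23) or day 7 replicate 3 (−1.91). Itga4, the other alpha chain, was at 6.87 ± 0.879 CPM in controls, 7.65 ± 1.69 at day 7 and 8.63 ± 1.18 at day 14 and did not pass (log2 0.15, SE 0.21 at day 7). With a correction for gene length and GC content its day 7 value was −0.35, also without passing. The levels of Itgae and Itgb7 were thus both lowest at day 7, while the libraries of Itga4 overlapped between all groups.

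The ligands of the integrins and receptors ranged in control level from Madcam1, at 0 to 2 counts in every library, to Cdh1. Cdh1, epithelial E-cadherin and the ligand of the alpha E beta 7 pair, was at 481 ± 34.2 CPM in controls, 458 ± 24.8 at day 7 and 462 ± 25.8 at day 14, with a log2 fold change at day 7 of −0.07 (SE 0.09) that did not pass. Vcam1, the endothelial ligand of the alpha 4 integrins, was at 3.87 ± 0.286 CPM in controls, 2.74 ± 1.12 at day 7 and 6.04 ± 0.901 at day 14. It rose from day 7 to day 14 (log2 1.13, SE 0.29, edgeR adjusted p = 0.0231), a call lost without day 7 replicate 1 or 2 or day 14 replicate 1 or 3 (0.88 to 1.14). At day 7 against control Vcam1 passed only after the length and GC correction, at −0.94 instead of −0.49. Madcam1 encodes the mucosal endothelial ligand of the alpha 4 beta 7 pair.

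Clec2d is a C-type lectin bound within the Klrb1 family of NK cell receptors, and binding to the member Klrb1c itself is not shown here. Clec2d fell from 134 ± 26.0 CPM in controls to 72.9 ± 8.94 at day 7 (log2 −0.88, SE 0.13, edgeR adjusted p = 0.000213). It rose again to 114 ± 14.2 at day 14 (log2 0.65, SE 0.13 against day 7, edgeR adjusted p = 0.00985), a call lost only without day 7 replicate 2 (0.57). Cd48, the ligand of Cd2, had 8, 22 and 15 counts in controls, 17, 24 and 27 at day 7 and 24, 47 and 38 at day 14, and it did not pass in any comparison. Flt3l, the ligand of Flt3, was at 3.43 ± 0.468 CPM in controls, 1.96 ± 0.443 at day 7 and 2.18 ± 0.426 at day 14. All irradiated libraries of Flt3l lay below the controls, and its change at day 7 missed the threshold (log2 −0.81, SE 0.32, edgeR adjusted p = 0.0609). Its level at day 14 overlapped that at day 7, where the counts of Flt3 itself did not.

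Of the genes that work with Lck, Zap70, the next kinase in the T cell receptor path, had 19, 13 and 7 counts in controls, 10, 5 and 2 at day 7 and 14, 13 and 7 at day 14 and did not pass (day 7 log2 −1.37, SE 0.70). Cd4, the coreceptor that holds Lck, had 17, 14 and 1 counts in controls, 7, 4 and 6 at day 7 and 13, 9 and 19 at day 14 and did not pass. Csk, the widely expressed kinase that restrains Lck, was at 76.4 ± 1.02 CPM in controls, 67.4 ± 3.20 at day 7 and 72.6 ± 0.523 at day 14 and did not pass. Ptprc, which encodes the leukocyte antigen CD45 that activates Lck, was at 5.52 ± 1.75 CPM in controls, 5.40 ± 0.454 at day 7 and 10.3 ± 1.10 at day 14. The level of Ptprc at day 7 did not differ past the threshold (log2 −0.04, SE 0.23), and with the length and GC correction it passed as lower (−0.58). Against control Ptprc rose at day 14 (log2 0.90, SE 0.22, edgeR adjusted p = 0.0436), but this call was lost in 11 of 17 alternatives, among them every omission of a day 14 library and of control replicate 1 or 2 (0.69 to 0.97 over these omissions). Against day 7 it rose by log2 0.94 (SE 0.22, edgeR adjusted p = 0.0166), lost without day 7 replicate 2 or 3 or day 14 replicate 1 or 2 (0.85 to 0.94).

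**Figure D3:**
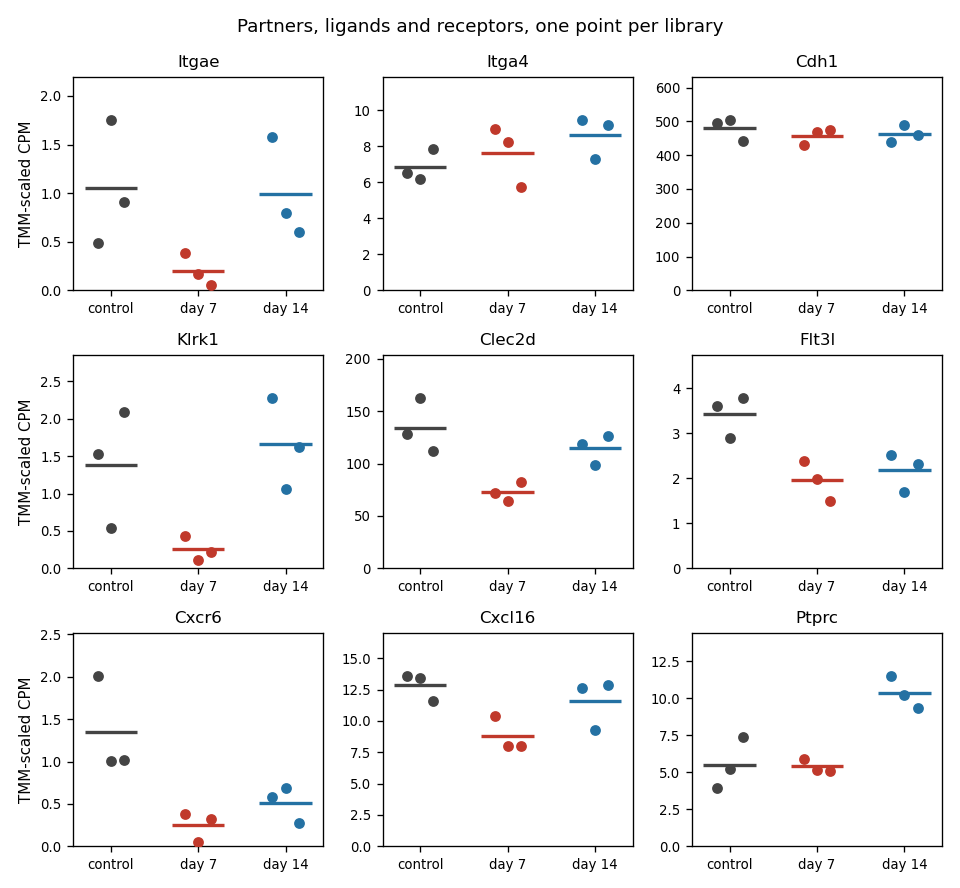
TMM-scaled CPM (y axis, from 0, a scale of its own in each panel) of 9 partners, ligands and receptors in each library, by group on the x axis, with a bar at the group mean. Itgae, Klrk1 and Cxcr6 have day 7 means of 0.200, 0.253 and 0.253 CPM, against 1.05, 1.39 and 1.35 in controls, while Itga4 and Cdh1 overlap between groups.

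Other T cell genes were also few in reads. Of 28 listed, 13 were tested, and their median log2 fold change at day 7 was −0.96. Of the 13, 1 fell at day 7 and none rose, where 14.8% of all genes fell and 15.8% rose. Cxcr6, the chemokine receptor of tissue-resident T cells and other lymphocytes, had 33, 15 and 18 counts in controls, 7, 1 and 6 at day 7 and 10, 13 and 5 at day 14. It fell at day 7 (log2 −2.38, SE 0.68, edgeR adjusted p = 0.0123), a call lost without control replicate 1 (−1.98) or day 7 replicate 2 (−1.92), and its day 14 libraries were still all below the controls (log2 −1.38, SE 0.63, not past the threshold). Ccl5, a chemokine of activated T and NK cells, had 18, 23 and 38 counts in controls, 20, 10 and 12 at day 7 and 54, 25 and 57 at day 14. It rose from day 7 to day 14 (log2 1.72, SE 0.46, adjusted p = 0.0322), lost with limma-voom (1.64) and without day 7 replicate 2 or 3 or day 14 replicate 1 or 3 (1.53 to 1.61). Thy1, at 6.47 ± 0.222 CPM in controls, and Trdc, the delta constant chain, at 2.44 ± 1.23 CPM, had the highest mean counts of the list. Neither passed against control, at day 7 (log2 −0.63, SE 0.25, and −1.02, SE 0.46) or at day 14 (log2 −0.33, SE 0.25, and −0.54, SE 0.45). All irradiated libraries of Thy1 lay below the controls, while those of Trdc overlapped them. Trdc overlaps other gene models on the opposite strand.

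Among 25 other NK cell and innate lymphocyte genes 14 were tested, with a median of −0.29 at day 7. Of the 14, 3 fell at day 7 and none rose, where 14.8% of all genes fell and 15.8% rose. Klrk1, the activating receptor NKG2D, had 25, 8 and 37 counts in controls, 8, 2 and 4 at day 7 and 39, 20 and 30 at day 14. It fell at day 7 (log2 −2.43, SE 0.63, edgeR adjusted p = 0.00689) and rose from day 7 to day 14 (2.67, SE 0.63, adjusted p = 0.0162), the second call being lost without day 7 replicate 2 or 3 or day 14 replicate 1 (2.32 to 2.57). Klra8, the receptor Ly49H, had 12, 29 and 14 counts in controls, 2, 4 and 10 at day 7 and 13, 15 and 41 at day 14. It fell at day 7 (log2 −1.97, SE 0.69, adjusted p = 0.0363), a call lost with limma-voom (−1.98) and without control replicate 2, day 7 replicate 1 or day 7 replicate 2 (−1.81 to −1.39), and 33.1% of its 50-base windows also occur in other Klra genes. Il2rb, the receptor chain for IL-2 and IL-15, was at 3.08 ± 0.960 CPM in controls, 1.86 ± 0.855 at day 7 and 3.29 ± 1.06 at day 14 and did not pass.

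Of 18 other dendritic cell genes 15 were tested, with a median of −0.53 at day 7. Of the 15, 3 fell and 1 rose at day 7, where 14.8% of all genes fell and 15.8% rose. Irf8, a transcription factor that type 1 dendritic cells need, was at 35.6 ± 4.41 CPM in controls, fell to 24.6 ± 1.93 at day 7 (log2 −0.53, SE 0.12, edgeR adjusted p = 0.00339) and was back at 35.7 ± 3.56 at day 14. That rise from day 7 (log2 0.53, SE 0.12, edgeR adjusted p = 0.0151) was lost without day 7 replicate 1 or 3 or day 14 replicate 3 (0.46 to 0.50). Xcr1, a chemokine receptor of the same cells, had 2, 14 and 23 counts in controls, 2, 0 and 3 at day 7 and 10, 5 and 0 at day 14. Its fall at day 7 (log2 −3.03, SE 1.09, adjusted p = 0.0417) was lost with limma-voom (−2.72), with the replicate block (−3.03) and without control replicate 2 or 3, any day 7 library or day 14 replicate 2 (−3.69 to −2.47), and its groups overlapped. The third was Itgae, given above. Dpp4, a surface peptidase of dendritic and epithelial cells, was at 69.0 ± 8.18 CPM in controls and rose to 85.1 ± 6.02 (log2 0.30, SE 0.11, edgeR adjusted p = 0.0375). That call was lost with the length and GC correction (−0.0057), with only the 6 libraries compared (0.29) and without control replicate 1 or 2 or day 7 replicate 2 or 3 (0.20 to 0.34).

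Of 17 cytokines and chemokines that maintain or attract these cells 13 were tested, with a median of 0.11 at day 7. Of the 13, 1 rose, 1 fell and 11 did not pass at day 7, where 15.8% of all genes rose and 14.8% fell. Il33, an alarmin that acts on innate lymphocytes, was at 4.94 ± 1.41 CPM in controls and rose to 8.86 ± 1.32 (log2 0.84, SE 0.24, edgeR adjusted p = 0.0115), a call lost without control replicate 1 (0.68) or day 7 replicate 1 (0.71). Cxcl16, the ligand of Cxcr6, was at 12.9 ± 1.11 CPM in controls and fell to 8.80 ± 1.36 (log2 −0.55, SE 0.18, edgeR adjusted p = 0.0258). That call was lost with the length and GC correction (−0.42) and without control replicate 1 or 2 or day 7 replicate 2 or 3 (−0.53 to −0.48). Il15ra, which presents IL-15 to NK cells, was at 39.7 ± 2.76 CPM in controls, 40.1 ± 5.45 at day 7 and 37.6 ± 5.20 at day 14 and did not pass. Ccl28, a mucosal chemokine of glands, was at 936 ± 224 CPM in controls, 1007 ± 118 at day 7 and 1413 ± 225 at day 14, where all libraries lay above the controls. Ccl28 did not pass at day 14 with all libraries (log2 0.59, SE 0.17, edgeR adjusted p = 0.0849) and did so with no filter on low counts (0.60) or without control replicate 3 (0.72).

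Genes of leukocytes at large were tested in full, all 13 of the list. At day 7, 5 fell (Cd52, Coro1a, Rac2, Cytip and Arhgdib) and 1 rose (Lcp1), with a median of −0.44. Over all genes 14.8% fell and 15.8% rose. Coro1a, an actin regulator of leukocytes, fell by 1.05 on the log2 scale (SE 0.18, edgeR adjusted p = 0.000294), Rac2, a blood cell GTPase, by 1.26 (SE 0.26, adjusted p = 0.00134) and Cd52, a surface glycoprotein of lymphocytes, by 1.19 (SE 0.25, adjusted p = 0.00171). Of the 13, 7 rose from day 7 to day 14 and 1 (Lcp1) fell, where 3.72% of all genes rose and 2.87% fell. Among those that rose were Coro1a (log2 1.20, SE 0.18), Rac2 (1.72, SE 0.26) and Cd52 (1.55, SE 0.25). The day 7 and day 14 calls of these 3 held in all 17 alternatives. Without control replicate 1 or without day 7 replicate 2, 3 of the list fell at day 7 in place of 5. Coro1a and Cd52 overlap Bola2 and Crybg2 on the other strand.

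The profile of the tested members over the 9 libraries was compared with that of every gene of at least 1 CPM. By Pearson's r of log2 CPM with the mean standardised profile of the 6, the 5 genes most like them were Coro1a (0.985), Pttg1 (0.971), H2-DMa (0.970), Psmb8 (0.963) and Alox5ap (0.959). After removal of the group means r was 0.866, 0.801, 0.723, 0.887 and 0.747. These are descriptions over 9 libraries that share the group differences, and the genes were picked as the highest of all. Coro1a ran at 186, 194 and 191 counts in controls, 101, 90 and 122 at day 7 and 230, 214 and 261 at day 14. Psmb8, a subunit of the immunoproteasome, ran at 151, 157 and 165, then 104, 98 and 108, then 247, 199 and 273.

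Markers of other cells that a section could hold were summed per library. None of 10 B cell genes passed the low-count filter, and the list summed to 15 to 44 counts in a library. Among them Ms4a1, which encodes the surface marker CD20, was at 0 or 1 count, Cd79a at 1 to 21, Cd79b at 2 to 12 and Blk at 0 to 15, so that the last 3 were in the range of members such as Lck. Genes of lymph node stroma and high endothelial venules summed to 5 to 24 counts, and Glycam1, Chst4, Ccl19 and Ccl21a were at 0 in all 9 libraries, where Ccl19 and Ccl21a have near-identical copies among which reads can be lost. Neutrophil genes summed to 9 to 40 counts and mast cell genes to 8 to 28.

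More abundant cell types moved with the groups or varied within them. Macrophage genes summed to 233 to 259 CPM in controls, 160 to 228 at day 7 and 311 to 388 at day 14, so that the sum too was lowest at day 7. Its genes did not move alike: of the 11 tested, 3 fell at day 7 (C1qa, C1qb and C1qc, the complement C1q chains, log2 −0.57, −0.67 and −0.75), 1 rose (Mertk, a receptor for uptake of dead cells, log2 0.90, SE 0.11, edgeR adjusted p = 2.6e-05) and 7 did not pass. Over all genes 14.8% fell and 15.8% rose at day 7. The calls of the C1q genes were lost with the length and GC correction (−0.14, −0.28 and −0.40). From day 7 to day 14, 6 of the 11 rose and 1 (Mertk) fell, where 3.72% of all genes rose and 2.87% fell. Mertk fell by 0.43 on the log2 scale, a call lost without any one day 7 library or day 14 replicate 2 or 3 (−0.46 to −0.39). Plasma cell genes summed to 367 to 1646 CPM in controls, 60.8 to 424 at day 7 and 89.4 to 1332 at day 14, with day 7 replicate 2 and day 14 replicate 3 the lowest of their groups. The leukocyte list summed to 295 to 351 CPM in controls, 450 to 502 at day 7 and 389 to 399 at day 14, of which Lcp1 alone had 3619 to 8178 counts. The part of these cell types in the members' values was not tested.

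**Figure D4:**
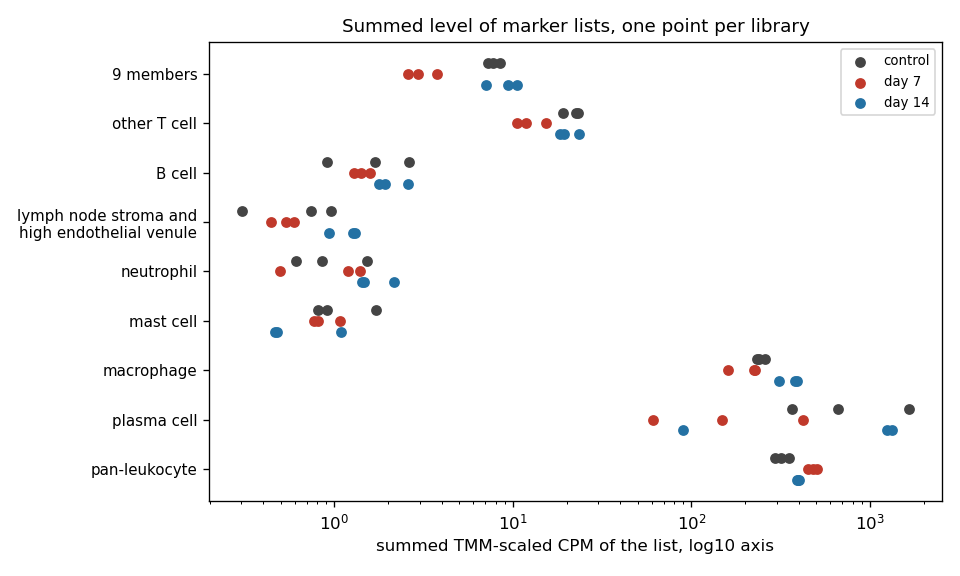
Summed TMM-scaled CPM (x axis, log10 scale) of the 9 members and of 8 marker lists, with a point for each library coloured by group. The members sit at 2.58 to 3.76 CPM at day 7 and at 7.07 CPM or more in the other groups, and the plasma cell list spans 60.8 to 1646 CPM.

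Fold changes also moved with gene length. Over 15343 genes (genes do not count as replicates) Spearman's rho between exonic length and the change at day 7 was 0.423, and genes of up to 1389 bases of exon, the shortest decile, had a median log2 fold change of −0.37. Among the members Nkg7 is the shortest, with 914 bases of exon, and its day 7 value was 0.15 after correction for length and GC content. Itgb7, with 2770 bases, was at −1.81 after that correction and still past the threshold. The part of RNA quality in these values was not tested.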

How the data were processed

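The files hold whole-number counts per gene, not normalised, as deposited by the authors, 1 table for each of the 9 libraries. The submitters' processing notes name STAR, featureCounts, DESeq2 and the build mm10, and their versions, settings, annotation and strand handling are not given in the sources at hand. Identifiers were matched to symbols, exons and transcripts of GENCODE M21 on GRCm38 (54495 of 54532 matched a symbol), and promoters were taken from RefSeq (GRCm38.p6).

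The members and lists were chosen with earlier results of these data known. Counts were fitted with edgeR 4.0.16 in R 4.3.3 (filterByExpr, TMM, robust quasi-likelihood F test, two-sided) on all 9 libraries in 3 groups, with 6 residual degrees of freedom and a biological coefficient of variation of 16.1%. P-values were Benjamini-Hochberg adjusted over the 15348 genes tested (39184 were removed), with a threshold of 0.05. The fit was tested on simulated data. No pair of libraries within a group agreed within sampling noise (chi-square over its degrees of freedom 9.19 to 124). Each library was counted as 1 sample, although such a spread does not show that the libraries came from separate animals.

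Named genes were the 9 members, the tested partners and ligands, up to 4 called genes of each other list per comparison (or the 2 with the most counts where none was called), and the 5 genes of at least 1 CPM with the most similar profile (log2 of CPM + 0.5). Coro1a, Rac2, Cd52, Lcp1, Klrb1a, Klrb1b, the B cell and macrophage genes and genes at or near 0 were added after their values were seen. Some genes that enter the counts, sums and medians of the lists are not reported here. Summed counts of a group were divided by summed scaled library totals for ratios, with exact binomial 95% intervals.

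Alternatives were DESeq2 size factors, no filter, at least 1 CPM in 3 libraries, DESeq2 1.42.0, limma-voom (limma 3.58.1), only the 6 libraries compared, the replicate block, a length and GC correction (mgcv 1.9.3) and leaving out each library in turn.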

Additional observations from a re-analysis of the deposited data

Results flagged for a closer look

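For 16 of the genes described, the change at day 7 and the change at day 14 differed, by the edgeR test of day 14 against day 7 that takes the 2 irradiated groups directly. Both changes share the controls. Of the 16, 14 were higher at day 14 than at day 7 and 2 (Lcp1 and Mertk) were lower. Pttg1, H2-DMa, Psmb8 and Alox5ap were chosen for a profile like that of the members and are not counted here. Coro1a, the closest of all to that profile (r 0.985), is counted as a gene of the leukocyte list, so it is not free of that choice.

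For 2 members, Cd2 (log2 2.14) and Itgb7 (log2 1.96), the values chose the genes, so this difference is a description, as it is for most of the others. For the others the values were 2.67 for Klrk1, the NK cell receptor NKG2D, 1.72 for Ccl5, 1.72 for Rac2, 1.55 for Cd52, 1.20 for Coro1a, 1.18 for C1qc, 1.16 for C1qb, 1.13 for Vcam1, 1.09 for C1qa, 0.94 for Ptprc, 0.65 for Clec2d, 0.53 for Irf8, −0.43 for Mertk and −0.59 for Lcp1. Those of Coro1a, Rac2, Cd52, Lcp1, C1qa, C1qb and C1qc passed in all 17 alternatives, and the calls of the other 7 each failed without at least 1 library. Klrk1, Ccl5 and Irf8 had been named because they passed the threshold in a comparison. Coro1a, Rac2, Cd52, Lcp1, C1qa, C1qb, C1qc and Mertk were added after their values were seen. Only Vcam1, Clec2d and Ptprc were named as partners whatever their result. The number of genes that differed, and their direction, thus follow in part from how the genes were picked. Groups of 3 libraries are too small for a test of single outlying samples.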

How the results depend on the processing

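At day 7 against control 4692 genes passed with all libraries and 3106 to 5314 with 1 library left out. At day 14 against control 270 passed, against 1300 with no filter on low counts, 1003 with DESeq2, 81 with limma-voom, 157 with only the 6 libraries compared, 141 with the length and GC correction and 13 to 1937 with 1 library left out (13 without control replicate 1 and 1937 without control replicate 3). At day 14 against day 7 1011 passed, and 330 to 1415 with 1 library left out. The cause was not tested.

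Of the members, 1 (Itgb7) was called lower at day 7 in all 17 alternatives. At day 14 against day 7 the count of 2 went to 1 with at least 1 CPM in 3 libraries (where Cd2 was not tested), to 1 with limma-voom, and to between 1 and 3 with 1 library left out. Itga4 turned to −0.35 at day 7 with the length and GC correction and Dpp4 to −0.0057. The day 7 value of Ptprc, −0.04 with all libraries, ran from −0.23 to 0.22 with 1 library left out, and was 0.0019 without day 7 replicate 3.

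The labels number the replicates, but same-numbered libraries did not deviate together (r of −0.112 to 0.037 over 9 pairs). For pairs with different numbers r was −0.09 to 0.158. These deviations are from means of only 3 libraries, so they cannot decide whether the number pairs the libraries. With the replicate block 4319, 113 and 746 genes passed in the 3 comparisons, and 1 member (Itgb7) in place of 2 was called at day 14 against day 7.

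Depth limits the members: a library with 3 counts stands at 0.154 to 0.188 CPM, and Cd3e, Cd3g and Flt3 did not pass the filter with all libraries. Flt3 was called at day 14 against day 7 with no filter (3.14) and, once past the filter, without any one control library (3.12 to 3.13) or without day 14 replicate 3 (3.41). Cd3e and Cd3g were called in none of the settings run. A change that missed the threshold is not shown to be absent. All 3 groups have 3 libraries, and an exact permutation test of 3 against 3 cannot go below p = 0.1.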

Other observations

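Several lymphocyte genes below the low-count filter had few or no reads at day 7, and some of these had none at day 14 either. All genes given under this heading were chosen after their values were seen and carry no test. Not all T cell genes below the filter were lower after irradiation. Counts summed over control, day 7 and day 14 were 3, 8 and 9 for Cd8a and 0, 6 and 1 for Cd8b1. For Foxp3 they were 2, 8 and 3, and for Cd6 0, 2 and 5. Cd3d, the delta chain of the CD3 complex, had 2, 8 and 1 counts in controls and 0 in all 6 irradiated libraries. Control replicate 2 held most of its reads. With a floor of 3 counts put in for each irradiated group, its summed control counts stood 4.14-fold above day 7 and 4.08-fold above day 14. Such folds leave out the counting error of the control sum and are not lower bounds. Il23r, the IL-23 receptor of innate lymphocytes and some T cells, had 3, 4 and 2 counts in controls and 0 in all irradiated libraries. Against the same floor its control sum stood 3.39-fold above day 7 and 3.34-fold above day 14.

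Others were low at day 7 alone. Trac, the alpha constant chain of the T cell receptor, had 1, 3 and 5 counts in controls, 0 in each day 7 library and 2, 5 and 3 at day 14. Prf1, the pore-forming protein of cytotoxic granules, had 19, 6 and 8 counts in controls, 0, 1 and 2 at day 7 and 4, 9 and 9 at day 14.

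Another pattern was high at day 14. Ccr7, the receptor that guides dendritic cells and T cells to lymph nodes, had 2, 4 and 0 counts in controls, 0, 2 and 0 at day 7 and 13, 9 and 10 at day 14. All day 14 libraries of Ccr7 lay above all other libraries.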
